A study of Mus musculus with 6 samples.

Results

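Genes that license replication origins and run the replication fork were mostly higher in a mouse cell line with an EWS-OCT4 fusion than in one with EGFP, both labelled as embryonic stem cells. The 48 genes were chosen by symbol, as the parts of origin licensing, the replicative helicase, the polymerases, and the clamp with its loader, and all 48 were found among the 23238 symbols of the count files. All 48 also passed the filter on low counts, which left 13467 symbols for testing. The study compared a pair of stable lines, made from 129/Ola cells named Niwa in the labels, with 3 libraries each. In the experimental line, EWS-OCT4A, which joins EWS of Ewing sarcoma to OCT-4 isoform A, was tagged with GFP, and the control line had EGFP. Both lines grew in stem cell medium with LIF and both were given doxycycline at 1 µg/ml to lower their own OCT-4, so every library comes from cells treated in this way. Each library was made from 500 ng of total RNA with a kit that reads transcript 3′ ends. The labels do not say whether a line was 1 clone, which promoter drove the transgene, or whether its 3 libraries were separate cultures. P-values thus measure only the spread between these samples, possibly technical. Rose and fell describe the EWS-OCT4 line relative to EGFP. Other differences between the lines and the fusion cannot be told apart.

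Before S phase, the origin recognition complex binds origins, and CDC6 and CDT1 help it to load the ring-shaped MCM helicase on DNA, a step called licensing. Geminin binds CDT1 and blocks a second round of loading. Kinases then activate the helicase together with CDC45 and the GINS complex, and polymerases, the sliding clamp PCNA and its loader copy both strands. Mouse embryonic stem cells are known for a short G1 phase and a large share of cells in S phase, whereas trophoblast giant cells are known to copy their genome without dividing. Many of these genes are known targets of E2F transcription factors.

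Libraries held 10978025 to 12281444 counts in the EWS-OCT4 line and 13239383 to 14935887 in the EGFP line, so that 1 count stood for 0.0650 to 0.0924 CPM (counts scaled to a fixed library total). Levels are CPM scaled with TMM, which gives each library a scale factor and assumes that most genes do not differ between libraries. Tests are edgeR's quasi-likelihood test with Benjamini-Hochberg adjustment over all 13467 genes at 0.05. Of these genes 67.4% were called, 33.3% higher and 34.1% lower, so the assumption of TMM is uncertain here. Fold changes are log2 values of EWS-OCT4 over EGFP, given with a standard error (SE). Replicate 3 differed most from its fellows: chi-square over its degrees of freedom was 34 and 34.2 in EWS-OCT4 and 25.3 and 26.8 in EGFP, against 4.17 and 3.96 between replicates 1 and 2. Pou5f1, which encodes OCT-4, had 18, 21 and 36 counts in the EWS-OCT4 libraries and 5, 13 and 10 counts in the EGFP libraries, low for cells labelled as embryonic stem cells (log2 fold change 1.76, adjusted p = 0.0108, and 0.0542 without EWS-OCT4 replicate 3). Whether tags of the fusion are counted there is not given in the labels, so these counts cannot check the labels. Other markers went against the label in the EGFP line: 15 pluripotent cell markers summed to 6372 to 7043 CPM in EWS-OCT4 libraries and 519 to 693 CPM in EGFP libraries, and 20 trophoblast markers to 280.4 to 323 CPM in EWS-OCT4 libraries and 15361 to 15803 CPM in EGFP libraries. Sox2, a core pluripotency factor, averaged 1334 ± 30.0 CPM in the EWS-OCT4 line and 7.02 ± 4.84 CPM in the EGFP line (SD, n = 3 each).

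Replication genes took a larger share of the counts in the EWS-OCT4 line. The 48 genes together held 0.766%, 0.784% and 0.793% of the counts in the EWS-OCT4 libraries, against 0.286%, 0.293% and 0.353% in the EGFP libraries (Wilson 95% intervals of the first of each 0.761 to 0.772 and 0.283 to 0.289, the others as narrow, for counting error only). The mean share was 0.781% ± 0.0136 in the EWS-OCT4 line and 0.311% ± 0.0369 in the EGFP line (SD, n = 3 each), a ratio of 2.51. The share needs no scaling between libraries but depends on what else was counted: the ribosomal RNA precursor gene Rn45s took 10.4%, 10.5% and 7.36% of counts in EWS-OCT4 libraries and 6.44%, 6.1% and 5.85% in EGFP libraries, and its part in the difference was not tested. In libraries of whole cultures, more cells in S phase and more of these RNAs per cell in the EWS-OCT4 line cannot be told apart.

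The test called 38 members higher and 1 lower, and 9 did not pass. Calls in either direction were made for 67.4% of all genes tested, 33.3% higher and 34.1% lower, whereas 79.2% of members were called higher. A rise of at least 2-fold was found in 23 members (47.9%), against 21.8% of all genes. A rise of at least 4-fold was found in 7 members, and the share of all genes at that level was not counted. The highest 5% began at a log2 fold change of 2.27 in members and 3.35 in all genes. The median log2 fold change was 0.94 over the members and -0.0042 over all genes. All 3 EWS-OCT4 libraries lay above all 3 EGFP libraries in 37 members and below them in 1, whereas the lines did not overlap for 72.7% of all genes tested, with the EWS-OCT4 libraries above in 36%. Without the libraries numbered 3, 45 members rose and 1 fell, among them all 38 of the first count. Calls were then more frequent over all genes too: 10240 of 13538 were called, 5092 of them higher, against 9073 of 13467 and 4482 with all libraries.

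**Figure D1:**
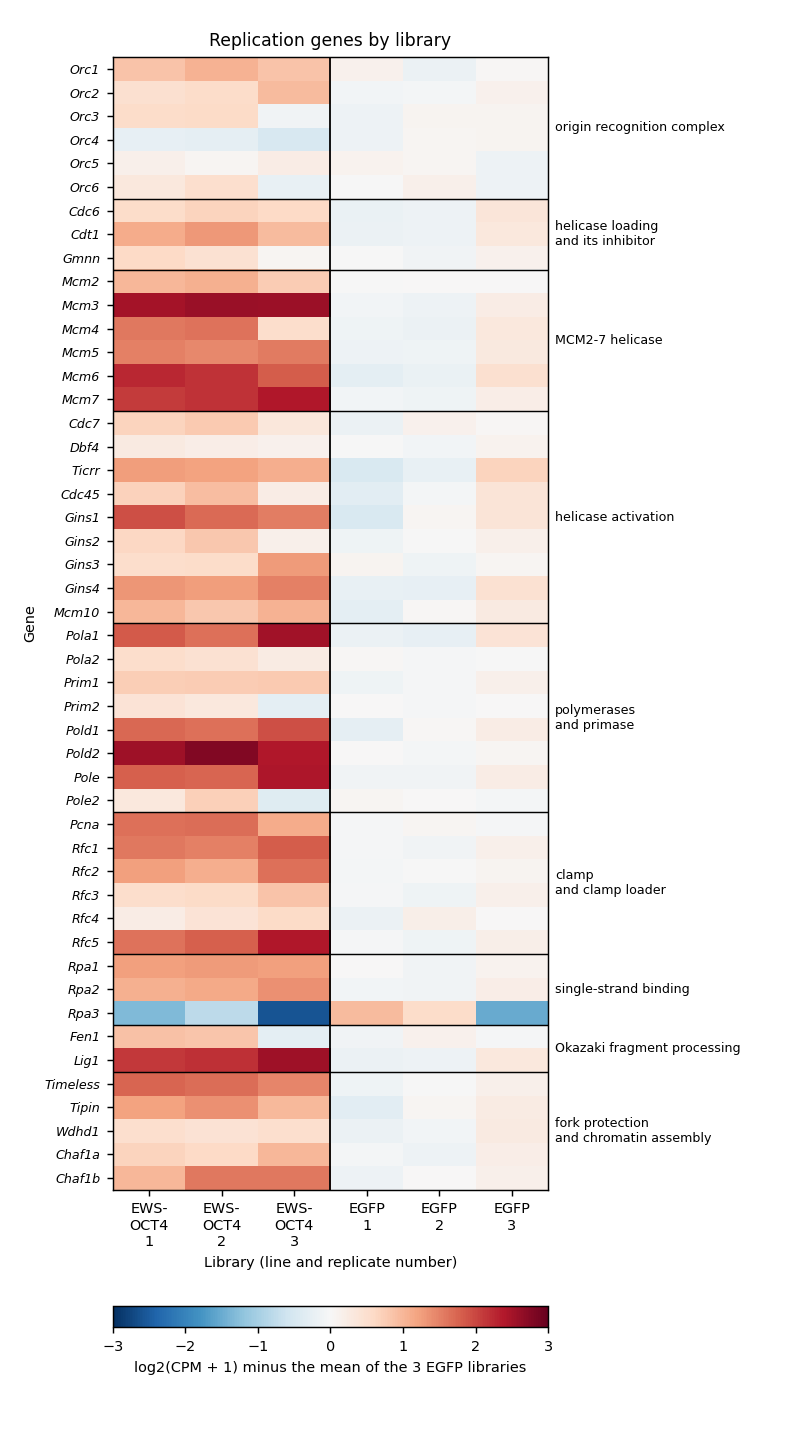
Level of each of the 48 genes (rows, grouped by role) in each library (columns, EWS-OCT4 replicates 1 to 3 and then EGFP replicates 1 to 3), as log2(CPM + 1) minus the mean of the 3 EGFP libraries of that gene. Most rows are red in all 3 EWS-OCT4 libraries, Rpa3 is blue there and also in EGFP replicate 3, and the origin recognition rows are pale.

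**Figure D2:**
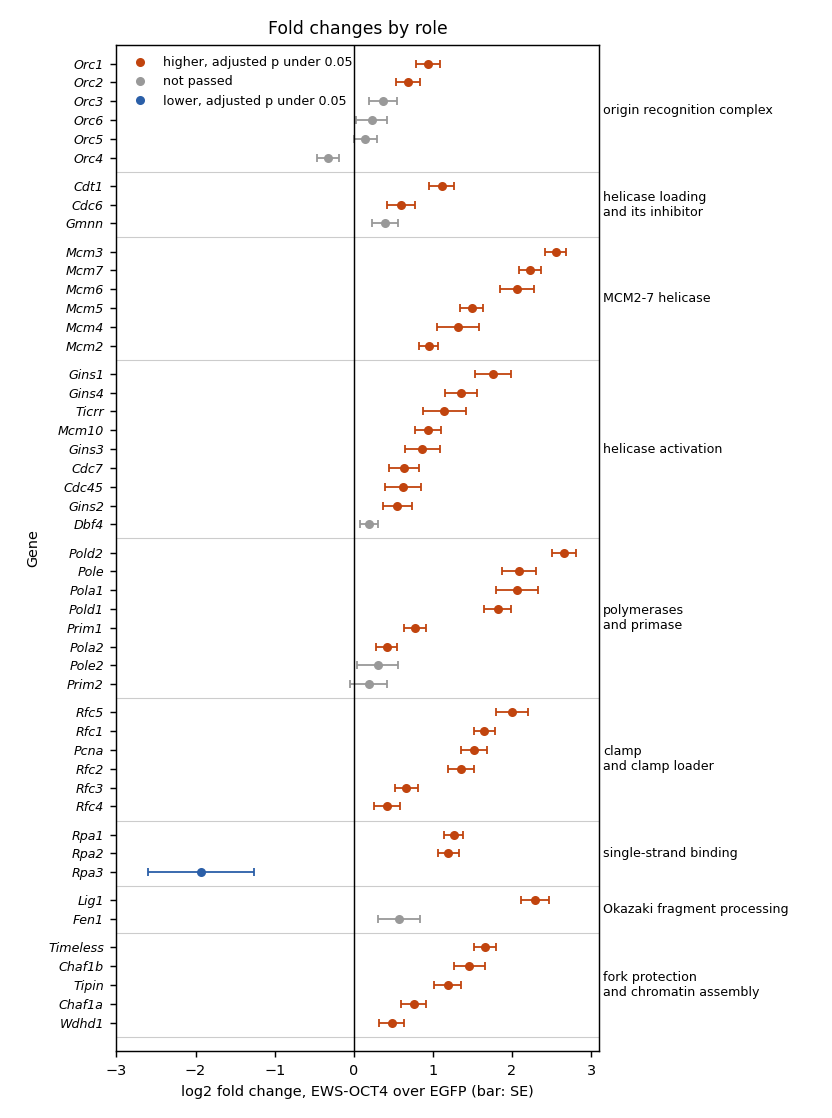
Log2 fold change (EWS-OCT4 over EGFP, horizontal axis) of each gene with its SE as a bar, grouped by role and coloured by the test. The values run from -1.93 for Rpa3 to 2.65 for Pold2, and 4 of the 6 origin recognition genes are grey because they did not pass.

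The 6 subunits of the MCM helicase, the ring that licensing loads on origins and that later unwinds DNA, all rose. That is 100% of the group, against 33.3% of all genes tested. Mcm3 had 655, 702 and 682 CPM in the EWS-OCT4 libraries and 108, 104 and 135 CPM in the EGFP libraries (log2 fold change 2.55, SE 0.13, adjusted p = 1.8e-07). Mcm7 had 806, 849 and 998 CPM in EWS-OCT4 libraries against 179, 170.4 and 218 CPM in EGFP libraries (2.23, SE 0.14). Mcm6 had 325, 303 and 238 CPM in EWS-OCT4 libraries against 55.0, 58.4 and 94.4 CPM in EGFP libraries (2.06, SE 0.22). These 3 subunits rose at least 4-fold, and no library of one line came near those of the other. Mcm5 had 357, 339.7 and 372 CPM in EWS-OCT4 libraries against 112, 115 and 153 CPM in EGFP libraries (1.49, SE 0.14). Mcm4 had 246, 253 and 118 CPM in EWS-OCT4 libraries against 73.9, 71.8 and 102 CPM in EGFP libraries (1.32, SE 0.27). EWS-OCT4 replicate 3 was the low library for Mcm4, close to EGFP replicate 3, and without it the log2 fold change was 1.60. Mcm2 had 323, 337 and 273 CPM in EWS-OCT4 libraries against 160.2, 162 and 161 CPM in EGFP libraries (0.95, SE 0.12, adjusted p = 5.6e-05). The proteins of these genes form a ring with 1 copy of each, while the rises of their transcripts ran from 1.93-fold for Mcm2 to 5.87-fold for Mcm3. Summed over the 6 genes, the level was 2681 to 2783 CPM in the EWS-OCT4 line and 681 to 864 CPM in the EGFP line.

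**Figure D3:**
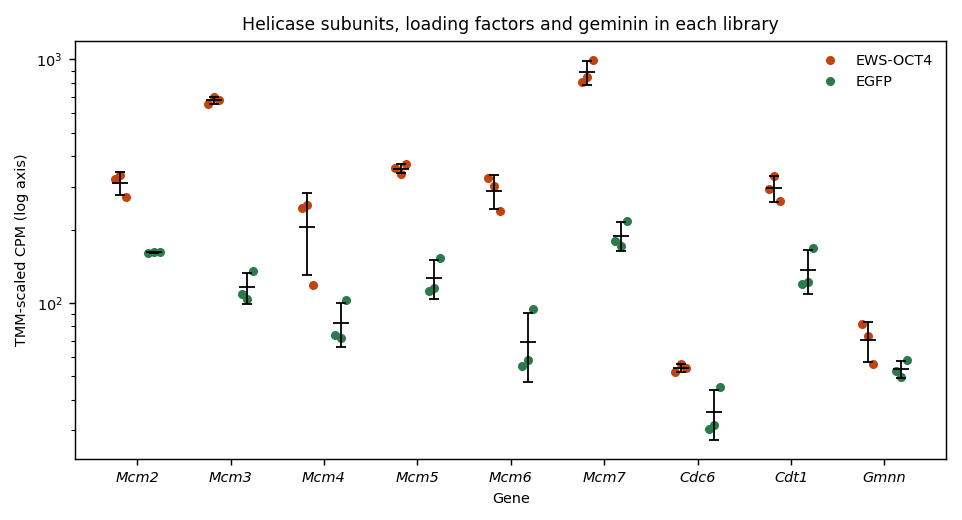
TMM-scaled CPM on a log axis of the 6 helicase subunits, the loading factors Cdc6 and Cdt1, and the inhibitor Gmnn, with 1 point per library and the mean with its SD in black, EWS-OCT4 left of EGFP for each gene. The lines are apart for the 6 subunits, Cdc6 and Cdt1, and overlap for Gmnn.

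The promoters of Mcm3, Lig1 and Mcm7 are shown because these were the members with the largest rises among those whose promoter holds an E2F type motif, and that of Rpa3 because it was the member that fell. Each is a window of 300 bases from RefSeq (GRCm38.p6), 5′ to 3′ on the strand of the gene, with 250 bases before the transcription start and 50 after it, and capitals mark E2F type motifs. RefSeq gave 3 such windows for Lig1 and 2 for Mcm7, and the one printed was picked because it holds a motif. Their other windows hold none. In the GENCODE M21 annotation the Lig1 gene begins at 13277283 and the Mcm7 gene at 138172422, each upstream of its printed window. The Rpa3 gene begins at 8259173 there, inside its printed window and before the RefSeq start. Mcm3 lies at chr1:20820263-20820562 on the minus strand, Lig1 at chr7:13278576-13278875 on the plus strand, Mcm7 at chr5:138171834-138172133 on the minus strand and Rpa3 at chr6:8259092-8259391 on the minus strand.
Mcm3: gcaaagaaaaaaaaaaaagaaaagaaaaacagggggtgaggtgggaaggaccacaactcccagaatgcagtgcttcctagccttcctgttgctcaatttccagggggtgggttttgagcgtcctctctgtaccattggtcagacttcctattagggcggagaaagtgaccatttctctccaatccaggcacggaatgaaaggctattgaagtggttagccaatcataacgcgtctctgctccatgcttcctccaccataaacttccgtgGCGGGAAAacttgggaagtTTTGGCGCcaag
Lig1: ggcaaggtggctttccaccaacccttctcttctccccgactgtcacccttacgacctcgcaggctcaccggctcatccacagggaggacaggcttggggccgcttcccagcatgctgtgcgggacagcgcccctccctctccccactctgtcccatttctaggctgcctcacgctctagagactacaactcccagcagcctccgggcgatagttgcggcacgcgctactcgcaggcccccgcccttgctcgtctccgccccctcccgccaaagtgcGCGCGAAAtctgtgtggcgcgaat
Mcm7: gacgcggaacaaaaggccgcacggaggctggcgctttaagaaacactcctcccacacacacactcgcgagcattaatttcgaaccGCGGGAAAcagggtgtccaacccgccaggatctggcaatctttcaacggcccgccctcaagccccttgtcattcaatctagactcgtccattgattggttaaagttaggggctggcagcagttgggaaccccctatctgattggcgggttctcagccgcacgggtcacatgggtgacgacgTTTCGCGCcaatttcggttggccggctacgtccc
Rpa3: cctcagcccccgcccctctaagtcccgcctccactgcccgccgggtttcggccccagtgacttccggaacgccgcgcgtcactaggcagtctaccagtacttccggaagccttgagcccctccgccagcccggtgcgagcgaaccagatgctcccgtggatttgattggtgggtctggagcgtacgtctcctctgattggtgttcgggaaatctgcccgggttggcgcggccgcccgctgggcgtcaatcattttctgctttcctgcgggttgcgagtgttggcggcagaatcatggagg
The search was for TTTGGCGC, TTTCCCGC, TTTGCCGC and TTTCGCGC on either strand. In Mcm3 the motifs begin 20 and 39 bases into the transcript, in Lig1 27 bases into it, and in Mcm7 165 bases before the start and 17 bases into the transcript. These positions count from the RefSeq start of the printed window. The motifs of Lig1 and Mcm7 all lie inside these genes as GENCODE M21 places them.

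An E2F type motif was found in at least 1 promoter window for 35.9% of members and 2.60% of genes in the whole table. Counted by window, the shares were 29.2% for members and 2.26% for the table, as some genes have more than 1 window. The table held promoters of 39 members and none of Gmnn, Mcm4, Gins1, Gins2, Gins4, Prim2, Pole, Rfc2 and Tipin. These 39 had 48 windows, and for 41 windows the transcribed part was found in a GENCODE M21 transcript of the gene. Of the 39 members, 14 held a motif (Wilson 95% interval 22.7% to 51.6%), against 11 of 40 other replication genes (27.5%) and 4.70% of the 10162 tested genes in the table, which has 27025 genes. Among all genes tested, the share was 5.74% of those that rose, 3.50% of those that fell and 4.95% of those that did not pass. Of the 14 members with the motif, 12 rose and 2, Orc3 and Pole2, did not pass, with a median log2 fold change of 1.30. Of the 25 without it, 19 rose, 1 fell and 5 did not pass, with a median of 0.76. The member with the largest rise, Pold2, has no E2F type motif in its 2 windows. The CCAAT box was found in 59.0% of members and 41.1% of all genes of the table, and TTTGAA or TTCGAA, the letters of the cell cycle homology region, in 23.1% and 21.7%. In the 250 bases before the start alone, the E2F type share was 23.1% of members, 3.92% of tested genes and 2.16% of the table. A motif here is a match of letters, not a site shown to be bound.

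The origin recognition complex, which marks origins and starts licensing, had the lowest median log2 fold change of the 9 role groups, 0.30. Of its 6 genes, 2 rose (33.3%, the same share as of all genes tested) and 4 did not pass. Orc1, the subunit whose level is known to cycle in human cells, had 46.5, 53.5 and 46.9 CPM in EWS-OCT4 libraries and 28.0, 22.5 and 26.0 CPM in EGFP libraries (0.94, SE 0.15, adjusted p = 3.0e-04), with no overlap. Orc2 averaged 158 ± 28.9 CPM in the EWS-OCT4 line and 98.5 ± 8.07 CPM in the EGFP line (SD, n = 3 each) and rose by 0.69. The other 4 subunits did not pass. Orc3 had 175, 178 and 112 CPM in EWS-OCT4 libraries against 108, 125 and 125 CPM in EGFP libraries (0.37, adjusted p = 0.088 by edgeR). Orc4 had 64.4, 63.4 and 54.6 CPM in EWS-OCT4 libraries against 68.6, 79.5 and 80.6 CPM in EGFP libraries (-0.33, adjusted p = 0.054 by edgeR). For Orc4 each EWS-OCT4 library was below each EGFP library, and with limma-voom it was called lower (-0.33, adjusted p = 0.0458). Orc4 and Rpa3 were the members with negative values. Orc5 had 40.8, 38.0 and 42.6 CPM in EWS-OCT4 libraries against 39.0, 38.2 and 32.5 CPM in EGFP libraries (0.15, adjusted p = 0.388 by edgeR). Orc6 had 59.2, 67.1 and 40.1 CPM in EWS-OCT4 libraries against 47.1, 52.3 and 42.7 CPM in EGFP libraries (0.23, adjusted p = 0.322 by edgeR). In Orc3 and Orc6 EWS-OCT4 replicate 3 was the low library, and without it both rose, by 0.56 (adjusted p = 0.00112 by edgeR) and 0.42 (0.0193). Neither passed in the other fits without 1 library. There the log2 fold change went down to 0.26 for Orc3 and 0.069 for Orc6 (adjusted p up to 0.273 and 0.786 by edgeR).

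Of the loading factors, Cdt1 and Cdc6 rose, while Gmnn, the gene of the CDT1 inhibitor geminin, did not pass. Cdt1 had 293, 332 and 261 CPM in EWS-OCT4 libraries and 119.6, 122 and 168 CPM in EGFP libraries (1.11, SE 0.16, adjusted p = 1.6e-04). Cdc6 had 51.8, 56.2 and 54.1 CPM in EWS-OCT4 libraries and 30.4, 31.5 and 45.2 CPM in EGFP libraries (0.60, SE 0.17, adjusted p = 0.0118). EGFP replicate 3 was the high control library for both genes, and the Cdc6 call was lost without EGFP replicate 1 (adjusted p = 0.0651) or EGFP replicate 2 (0.0616). Gmnn had 81.6, 73.1 and 55.8 CPM in EWS-OCT4 libraries and 52.7, 49.7 and 58.0 CPM in EGFP libraries (0.39, SE 0.16, adjusted p = 0.0543). EWS-OCT4 replicate 3 lay among the EGFP libraries for Gmnn, which rose by 0.54 without it (adjusted p = 0.00341 by edgeR). In the other fits without 1 library Gmnn did not pass, with a log2 fold change down to 0.27 (adjusted p up to 0.208 by edgeR). The counts of Cdt1 over those of Gmnn, a ratio that no scaling changes, were 3.59, 4.53 and 4.68 in EWS-OCT4 libraries and 2.27, 2.45 and 2.90 in EGFP libraries, without overlap. The counts of Cdc6 over those of Gmnn were 0.635, 0.768 and 0.968 in EWS-OCT4 libraries and 0.576, 0.633 and 0.779 in EGFP libraries, which overlapped. With 3 against 3 libraries an exact permutation test cannot go below 0.10, so these ratios are given as descriptions. Ratios of other member pairs were also taken. The lines did not overlap for some, such as Chaf1a over Chaf1b and Timeless over Tipin. They overlapped for others, such as Mcm2 over Orc2 and Rpa2 over Rpa1. The share over pairs of all genes was not counted.

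Among the 9 genes that turn the loaded ring into a working helicase, 8 rose (88.9%, against 33.3% of all genes tested). The median log2 fold change of the 9 was 0.87. The GINS complex, 4 proteins that join the ring with CDC45, rose unevenly. Gins1 had 50.3, 43.1 and 38.2 CPM in EWS-OCT4 libraries and 8.87, 13.0 and 16.8 CPM in EGFP libraries (1.76, SE 0.23, adjusted p = 8.2e-05), with no overlap. Gins4 rose by 1.36, Gins3 by 0.87 and Gins2 by 0.55. Ticrr, the treslin gene, whose protein helps to bring CDC45 to the ring, rose by 1.14, Mcm10, needed for the ring to start moving, by 0.94, and the kinase gene Cdc7 by 0.63. Cdc45 rose by 0.62. Dbf4, the partner that switches CDC7 on, had 191, 181 and 173 CPM in EWS-OCT4 libraries and 156, 149 and 170.4 CPM in EGFP libraries (0.20, SE 0.11, adjusted p = 0.146). The lines did not overlap for Dbf4, but EGFP replicate 3 lay just under the EWS-OCT4 libraries. For Cdc45 and Gins2 the libraries of the lines overlapped, and both calls were lost without EWS-OCT4 replicate 1 or 2 or EGFP replicate 1 or 2 (adjusted p up to 0.146 and 0.092). The Cdc7 call was lost without EWS-OCT4 replicate 2 (adjusted p = 0.0535) or EGFP replicate 1 (0.0614).

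Of the 8 polymerase and primase genes, 6 rose (75%, against 33.3% of all genes tested) and 2 did not pass. The median log2 fold change of the 8 was 1.30. Pold2, an accessory subunit of polymerase delta, which copies mainly the lagging strand, had 92.3, 109 and 84.3 CPM in EWS-OCT4 libraries and 15.2, 14.4 and 15.7 CPM in EGFP libraries (2.65, SE 0.15, adjusted p = 3.1e-07). Its EGFP libraries were nearly equal and each EWS-OCT4 library was far above them. Pole, the catalytic subunit of the leading-strand polymerase, rose by 2.09, Pola1, that of the priming polymerase alpha, by 2.06, and Pold1, that of polymerase delta, by 1.82. The primase gene Prim1 rose by 0.78 and Pola2, the second subunit of polymerase alpha, by 0.41. Prim2, the other primase subunit, had 17.6, 16.4 and 10.3 CPM in EWS-OCT4 libraries and 13.1, 12.7 and 13.1 CPM in EGFP libraries (0.19, SE 0.23, adjusted p = 0.491). Pole2, the second subunit of polymerase epsilon, had 22.4, 30.1 and 13.6 CPM in EWS-OCT4 libraries and 18.5, 18.1 and 17.0 CPM in EGFP libraries (0.30, SE 0.26, adjusted p = 0.322). In both genes EWS-OCT4 replicate 3 lay below the EGFP libraries while numbers 1 and 2 were at or above them, and without it Pole2 rose by 0.56 (adjusted p = 0.0204 by edgeR). In the other fits without 1 library Pole2 did not pass, with a log2 fold change down to 0.013 (adjusted p up to 0.968 by edgeR). The counts of Pole over those of Pole2 were 2.05, 1.49 and 5.27 in EWS-OCT4 libraries and 0.633, 0.640 and 0.874 in EGFP libraries. The Pola2 call was lost without EWS-OCT4 replicate 1 or 2 or EGFP replicate 1 or 2 (adjusted p up to 0.073).

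The clamp PCNA, a ring that holds polymerases on DNA, and the 5 genes of its loader all rose, with a median log2 fold change of 1.44. That is 100% of the group, against 33.3% of all genes tested. Rfc5, a loader subunit, had 168, 189 and 289 CPM in EWS-OCT4 libraries and 51.9, 49.0 and 60.5 CPM in EGFP libraries (2.00, SE 0.20, adjusted p = 1.4e-05), and EWS-OCT4 replicate 3 was its highest library. Rfc1, the large subunit, rose by 1.65, Rfc2 by 1.36, Rfc3 by 0.66 and Rfc4 by 0.42. The Rfc4 call was the weakest of all members that rose (adjusted p = 0.0469 by edgeR) and was lost without EWS-OCT4 replicate 2 or 3 or any 1 EGFP replicate (adjusted p up to 0.184). Pcna averaged 150.5 ± 31.5 CPM in the EWS-OCT4 line and 52.5 ± 2.13 CPM in the EGFP line (SD, n = 3 each), a rise of 1.52. The annotation lists 2 pseudogenes named after Pcna, whose reads could be shared with it.

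RPA, the complex of 3 proteins that coats single-stranded DNA at the fork, was the role group with calls in both directions. Rpa1, the large subunit, had 143, 148 and 144 CPM in EWS-OCT4 libraries and 60.5, 56.2 and 64.7 CPM in EGFP libraries (1.26, SE 0.12, adjusted p = 8.0e-06). Rpa2, the middle subunit, averaged 263 ± 30.3 CPM in the EWS-OCT4 line and 115 ± 14.3 CPM in the EGFP line (SD, n = 3 each) and rose by 1.20. The tight libraries of Rpa1 and Rpa2 contrast with those of the small subunit. Rpa3 had 4.43, 6.83 and 1.26 CPM in EWS-OCT4 libraries, from 48, 74 and 15 counts, and 25.1, 18.9 and 3.77 CPM in EGFP libraries, from 336, 269 and 58 counts (-1.93, SE 0.67, adjusted p = 0.0265). In both lines replicate 3 was the lowest, and EGFP replicate 3 lay below the first 2 EWS-OCT4 libraries, so the lines overlapped. The Rpa3 call was lost without EWS-OCT4 replicate 1 or 3 or EGFP replicate 1 or 2 (adjusted p up to 0.114) and with limma-voom (0.0971) or DESeq2 (0.0674). Its mean was the lowest of the 48 genes in the EWS-OCT4 line, but not in the EGFP line, where Pole, Gins1, Prim2 and Pold2 were lower.

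On the lagging strand, Lig1, the ligase that joins Okazaki fragments, rose, and Fen1, the nuclease that trims their flaps, did not pass. Lig1 had 1033, 1088 and 1396 CPM in EWS-OCT4 libraries and 210.3, 215 and 295 CPM in EGFP libraries (2.29, SE 0.17, adjusted p = 1.9e-06). Fen1 had 147, 142 and 63.9 CPM in EWS-OCT4 libraries and 73.3, 86.5 and 76.9 CPM in EGFP libraries (0.57, SE 0.26, adjusted p = 0.0785). Again EWS-OCT4 replicate 3 was low, under all EGFP libraries, and without it Fen1 rose by 0.87 (adjusted p = 1.0e-04 by edgeR). In the other fits without 1 library Fen1 did not pass, with a log2 fold change down to 0.38 (adjusted p up to 0.263 by edgeR).

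The genes of fork protection and of chromatin assembly behind the fork all rose (100%, against 33.3% of all genes tested). Timeless, which with its partner TIPIN links the helicase to the polymerases, had 150.2, 143 and 123 CPM in EWS-OCT4 libraries and 39.9, 43.3 and 48.4 CPM in EGFP libraries (1.66, SE 0.14, adjusted p = 3.6e-06). Tipin rose by 1.19. Chaf1b and Chaf1a, subunits of the chromatin assembly factor that places histones on new DNA, rose by 1.46 and 0.76. Wdhd1, which ties polymerase alpha to the helicase, rose by 0.48, a call lost without EWS-OCT4 replicate 1 or EGFP replicate 1 or 2 (adjusted p up to 0.107). In all 5 of these genes each EWS-OCT4 library lay above each EGFP library, which held for 36% of all genes tested.

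Other genes of replication, from a list of 48 that are not among the members, were also called higher more often than lower. Of 46 tested, 28 rose (60.9%, against 33.3% of all genes tested), 5 fell (10.9%, against 34.1%) and 13 did not pass. Calls in either direction, 71.7%, were near the 67.4% of all genes. The median log2 fold change was 0.58. The largest rises were in Rnaseh2a, the catalytic subunit of an enzyme that removes ribonucleotides from DNA (2.11), Rif1, which times origin firing (1.95), and Dtl, the adaptor that sends CDT1 for destruction during S phase (1.83). The largest falls were in Cul4b (-1.15) and Cul4a (-0.90), the scaffolds of the ubiquitin ligase that DTL serves, and in the topoisomerase Top1 (-0.88). Dtl averaged 84.3 ± 5.31 CPM in the EWS-OCT4 line and 23.6 ± 4.66 CPM in the EGFP line, and Cul4b averaged 201 ± 14.8 CPM in the EWS-OCT4 line and 446 ± 13.7 CPM in the EGFP line (SD, n = 3 each).

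Genes of E2F factors and pocket proteins, which are known to control replication genes, were called in both directions. Of 13, 7 rose (53.8%, against 33.3% of all genes tested), 5 fell (38.5%, against 34.1%) and 1 did not pass. E2f2 and E2f1, activators of S phase genes, rose by 3.16 and 2.13, and the pocket protein gene Rbl1 by 1.74. Rb1, the retinoblastoma gene, fell (-2.77), and so did E2f8 (-2.25) and E2f7 (-1.97), repressors of the same targets. Other members went against such a division by role: E2f3, also an activator, fell (-1.07, adjusted p = 1.6e-04 by edgeR), while E2f4 (0.71) and E2f5 (1.25), known mainly as repressors, rose. These 3 were chosen after their values were seen. E2f2 had 156, 145 and 183 CPM in EWS-OCT4 libraries and 18.3, 17.3 and 18.6 CPM in EGFP libraries (adjusted p = 7.0e-08 by edgeR). E2f7 had 27.8, 24.0 and 24.0 CPM in EWS-OCT4 libraries and 105, 105 and 87.9 CPM in EGFP libraries (adjusted p = 1.4e-06 by edgeR). The lines did not overlap for E2f2, E2f1, Rbl1, Rb1, E2f8 or E2f7, which were named for the size of their change. They overlapped for E2f4, Rbl2 and Tfdp1. In this list 76.9% of genes did not overlap, near the 72.7% of all genes tested.

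**Figure D4:**
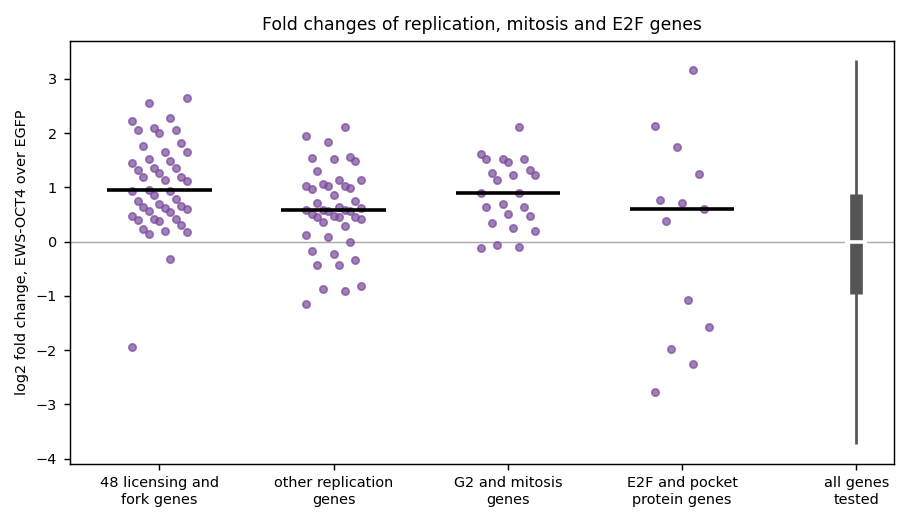
Log2 fold changes (EWS-OCT4 over EGFP) of the 48 licensing and fork genes, 46 other replication genes, 24 G2 and mitosis genes and 13 E2F and pocket protein genes, 1 point per gene with the median as a black line, beside all 13467 genes tested (thin line from the lowest to the highest 5%, thick line the middle 50%, white mark the median). The first 3 lists have medians of 0.94, 0.58 and 0.90, and the E2F list lies on both sides of 0. Top2a is drawn in both the second and the third list.

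Genes of G2 and mitosis, a list that shares Top2a with the other replication genes, had a median log2 fold change of 0.90. Of its 24 genes, 16 were higher (66.7%, against 33.3% of all genes tested) and 8 did not pass. Calls in either direction were near the 67.4% of all genes. The difference from the replication genes was not tested. Among markers of cell identity, all 15 of pluripotent cells rose and all 18 trophoblast markers tested, of 20, fell. Plac1, Prl3d1, Prl2c2, Psg17 and Tpbpa had no count in EWS-OCT4 libraries. Of these, Prl2c2 (25, 22 and 0 counts in EGFP libraries) and Psg17 (2, 5 and 1) were low in both lines and not tested. Of 7 primitive endoderm markers tested, of 13, 2 rose (Lama1 by 4.07 and Gata4 by 3.80), 4 fell and 1 did not pass. Their sum, 76.9 to 107 CPM in EWS-OCT4 libraries and 250.4 to 314 CPM in EGFP libraries, rested mostly on Lama1 in the EWS-OCT4 line (63.9 CPM) and on Col4a1 (168 CPM) and Dab2 (79.5 CPM) in the EGFP line. Afp and Cubn were at 0 in the EWS-OCT4 line, averaged only 0.296 and 0.0901 CPM in the EGFP line, and were not tested. Of 7 fibroblast markers tested, of 12, 2 rose, 2 fell and 3 did not pass. Their sums overlapped, at 26.0 to 36.4 CPM in EWS-OCT4 libraries and 24.1 to 39.1 CPM in EGFP libraries, with members in opposite directions: Thy1 averaged 17.9 CPM in the EWS-OCT4 line and 0.636 CPM in the EGFP line, and Acta2 averaged 0.763 CPM in the EWS-OCT4 line and 16.2 CPM in the EGFP line. Postn was at 0 in the EWS-OCT4 line and averaged 9.16 CPM in the EGFP line. Fbln2, at 0 in the EGFP line, averaged only 0.629 CPM in the EWS-OCT4 line and was not tested. The part of cell identity in the difference in replication genes was not tested.

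The libraries numbered 3 often lay at an end of their line. EWS-OCT4 replicate 3 was the highest of its line for 21 members and the lowest for 23, so that it was at an end for 91.7% of members, against 80.7% of all genes. EGFP replicate 3 was the highest of its line for 35 members and the lowest for 4, against 40.4% and 39.4% of all genes. It was also the highest of its line for 24 of 24 G2 and mitosis genes. In the EWS-OCT4 line, replicate 3 differed from the mean of numbers 1 and 2 by -1.55 (Rpa3), -1.16 (Fen1) and -1.07 (Mcm4) at the low end and by 0.78 (Pola1) at the high end, on the scale of log2(CPM + 1). In the EGFP line the ends were -2.27 (Rpa3) and 0.99 (Ticrr). Over the 48 genes the offsets of the lines had a Pearson r of 0.46, and 0.21 without Rpa3, with genes that share libraries and are not independent. What sets the libraries numbered 3 apart is not in the labels.

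**Figure D5:**
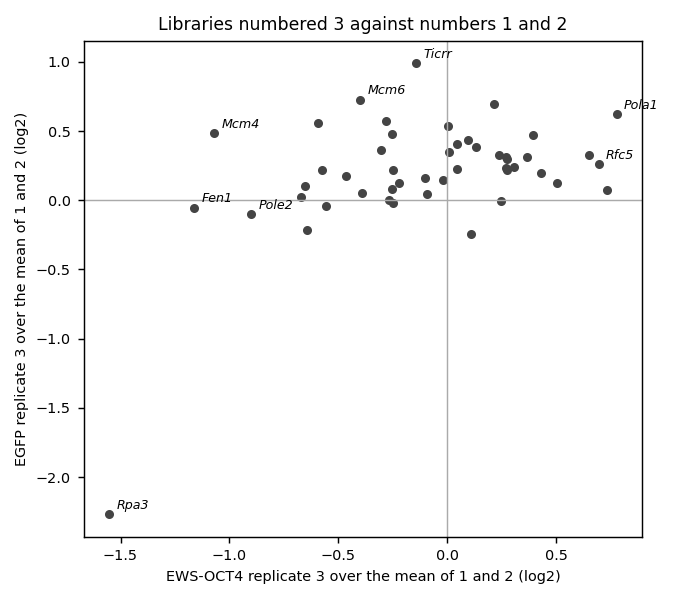
For each of the 48 genes, log2(CPM + 1) of replicate 3 minus that of the mean of replicates 1 and 2, in the EWS-OCT4 line (horizontal axis) and in the EGFP line (vertical axis). Points spread to both sides along the horizontal axis, lie mostly above 0 on the vertical axis (40 of 48), and Rpa3 is far below the others in both lines. The genes labelled were chosen after their values were seen.

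The 48 genes lie on 17 chromosomes in GENCODE M21 (GRCm38, the assembly that mm10 names), with 9 of them on chromosome 5 and 6 on chromosome 8. Mcm3 spans 20802968 to 20820312 on chromosome 1, Mcm7 138164583 to 138172422 on chromosome 5, Pold2 5872180 to 5878292 on chromosome 11 and Rpa3 8255936 to 8259173 on chromosome 6, all on the minus strand. Tags from 3′ ends are placed without a stated use of strand, and exons of 9 members are overlapped within the last 500 bases of the gene by a gene on the other strand. These are Orc2, Orc4, Mcm7, Ticrr, Gins2, Rfc4, Rfc5, Fen1 and Chaf1a, whose levels are uncertain to that extent. For Mcm7 the partner Cops6 had 3922 counts in the EWS-OCT4 libraries and 3409 in the EGFP libraries, and for Rfc5 the partner Wsb2 had 1750 and 3564. Orc5 shares exon sequence on its own strand with the pseudogene Gm15421, which had 5005 counts in the EWS-OCT4 libraries and 3050 in the EGFP libraries.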

How the data were processed

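RNA tags of transcript 3′ ends were measured in 3 EWS-OCT4 and 3 EGFP libraries, grouped by their titles. The deposited files hold counts as whole numbers for each gene symbol. Bowtie2, edgeR and mm10 are named, without versions, per the submitters' processing notes; the counter, gene annotation and strandedness were not given in the sources used here, and of 23282 lines per file the 35 symbols on more than 1 line (79 lines) were summed.

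edgeR 4.0.16 was used: TMM scaling, filterByExpr (at least 10 counts, total of at least 15), and its robust 2-sided quasi-likelihood test on 13467 genes. The coefficient of biological variation came to 19.3%. The SE is the log2 fold change divided by the square root of F. On simulated data for 13219 genes with 100 changed 2-fold and 100 changed 4-fold, this comparison recovered 59.2% and 95% of them, with 3.77% false calls. No simulation had as many changed genes as the data.

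The members and lists were chosen with earlier results of these data known. Members follow a rule: in each role group the largest rise, the largest fall and those that did not pass are given by library. For helicase subunits and loading factors all are given. From the other replication genes and from the E2F list, the 3 largest rises and falls are named. Further genes named from these and from the marker lists, Pou5f1 apart, fall outside this rule. Alternatives were leaving out libraries, a replicate block, other scalings and filters, limma-voom 3.58.1, DESeq2 1.42.0, testing for more than a 1.5-fold change, and an adjusted p of 0.01.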

Additional observations from a re-analysis of the deposited data

How the results depend on the processing

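No member changed sign in any of the 16 alternatives. The 1.5-fold test and the adjusted p of 0.01 keep the log2 fold changes of the main fit, so no sign could change there. Of the 38 members that rose, 31 also passed in all 6 fits without 1 library. The count of members higher was 31 to 42 without 1 library, 37 with DESeq2 or no filter, 42 with upper quartile scaling, 26 against a 1.5-fold change and 31 at an adjusted p of 0.01. Over all genes, the count higher was 4482 in the main fit and 3955 to 4548 without 1 library. It was 5119 with upper quartile scaling, 3073 against a 1.5-fold change and 3571 at an adjusted p of 0.01. The count lower was 0 to 1 without 1 library, and 0 with no filter, DESeq2, the 1.5-fold test and an adjusted p of 0.01; at an unadjusted p under 0.05 edgeR had 2 lower. Of other replication genes, 17 rose and 3 fell against a 1.5-fold change. The median over members was 1.05 in replicates 1 and 2 of both lines and 1.11 with upper quartile scaling. That scaling moved the median of all genes to 0.16, so relative to all genes the members were at 0.95 there, as with TMM. Same-numbered libraries deviated together weakly (correlations 0.051, 0.074 and 0.163 for numbers 1, 2 and 3), so the numbers are not taken as pairs; with a replicate block 38 members were higher and 1 lower. Motif shares in the 250 bases before the start were 23.1% (E2F type), 20.5% (TTTGAA or TTCGAA) and 59.0% (CCAAT) of members. With limma-voom the member lower was Orc4 in place of Rpa3.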
